A study of Homo sapiens with 54 samples.

Results

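The Wnt pathway was followed through 46 genes, namely ligands, R-spondins, receptors, transducers, inhibitors and transcriptional targets, out of 60676 genes measured in human medium spiny neuron-like (hMSN-like) cells exposed to dopamine or to dopamine receptor agonists. The genes were taken by name, and all 46 were found in every library. The cells were H9, a human embryonic stem cell line, differentiated with an Activin A protocol. RNA-seq was analysed for 53 libraries of 18 conditions in 4 experiments, with 3 libraries per condition except 5 Day, which had 2. The 1 mM and the 1 uM experiment each held PBS controls, Acute 1 h and Acute 24 h, extracted 1 or 24 h after a single dopamine dose, and Chronic 1 h and Chronic 24 h, extracted 1 or 24 h after the last of 5 daily doses. In both experiments the methods place acute dosing at an earlier culture day than chronic dosing, and the culture day of the PBS libraries was not given in the sources used here, so culture age and repeated dosing cannot be told apart. The methods dissolve dopamine in ascorbic acid, and the labels name the controls of both dose experiments as PBS, so the vehicle and dopamine cannot be told apart there. In the time course, cultures received 1 mM dopamine daily for 2, 3, 4 or 5 days. They were extracted 1 h after the last dose, on the same day as controls given ascorbic acid, the vehicle (AA control). In the agonist experiment, SKF82958, an agonist of D1-like receptors, and Quinpirole, an agonist of D2-like receptors, were set against Water. All groups were H9 cells, the cultures held mixed cell types, and the labels name replicates without saying whether they came from separate differentiations, so p-values may measure technical spread.

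In canonical Wnt signaling, a secreted Wnt ligand binds a Frizzled receptor with its LRP co-receptor, the complex that degrades beta-catenin is inhibited, and beta-catenin enters the nucleus and activates targets with TCF/LEF transcription factors. R-spondins bind LGR receptors and keep Frizzled receptors at the membrane by removing the ubiquitin ligases RNF43 and ZNRF3. Many of the targets, such as AXIN2, RNF43, ZNRF3, NKD1, NOTUM, APCDD1 and DKK1, restrain the pathway and form its negative feedback, and in the developing forebrain the pathway patterns the dorsal side and maintains progenitors.

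Exon reads per library had a median of 11458465 over all 53 libraries and ranged from 13707122 to 21514125 in the 1 mM experiment, from 5755919 to 27702963 in the 1 uM experiment and from 8449292 to 14303800 in the time course. Replicate 1 of Quinpirole had 137051 exon reads and 96.7% of its gene reads in introns. Within 1 mM Acute 24 h, replicate 1 stood apart from the other two libraries in several members, with MYC at 95.3 TPM against 27.1 and 20.2 TPM and FZD8 at 139.9 TPM against 22.6 and 31.0 TPM. TPM is the number of exon reads per exon length, scaled to the same total in each library. In control libraries, PPP1R1B (DARPP-32) was at 7.70 to 44.7 TPM and BCL11B (CTIP2) at 27.4 to 83.9 TPM, both markers of medium spiny neurons, whereas the receptor DRD1 was at 0 to 2.40 TPM. TTR, a choroid plexus marker, was at 502.8 to 3418 TPM in the same control libraries. Because the cultures were bulk samples, fewer cells of a type and less RNA per cell cannot be told apart.

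Across the 12 control libraries, 29 members had a median of at least 10 TPM, 14 of 1 to 10 TPM, and 3 of less than 1 TPM. The highest median levels were those of CTNNB1, which encodes beta-catenin (135.4 TPM), the secreted Frizzled-related inhibitor SFRP1 (105.5 TPM), the receptor FZD3 (84.1 TPM), the R-spondin RSPO2 (81.5 TPM), the transcription factor LEF1 (67.1 TPM) and the cyclin gene CCND1 (67.0 TPM). The 3 lowest were LGR5 (0.793 TPM) and LGR6 (0.596 TPM), which encode R-spondin receptors, and the inhibitor DKK4 (0.350 TPM). Controls of the experiments were not at the same level for every member. SP5, a transcription factor gene that is a direct Wnt target, was at 10.9, 9.02 and 14.8 TPM in the 1 mM PBS libraries, and at 0.717, 0 and 0.777 TPM in the 1 uM PBS libraries, so these ranges did not overlap. The dose experiments were separate sets of libraries, and the source of this difference was not tested.

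The first comparison asked which members responded within 1 h of a single 1 mM dopamine dose. With exon reads and all 15 libraries of the experiment, the response was broad and its calls were in a single direction. All 46 members had enough reads to be tested, and 23 were higher and 0 lower than in PBS at an adjusted p below 0.05 (edgeR quasi-likelihood test, Benjamini-Hochberg adjustment over 17804 genes). Of all genes tested, 8.04% were higher. The members were chosen with earlier results of these data known, so that choice can enter this contrast. The log2(fold change) was above 0 for 41 of 46 members, with a median of 0.79 against 0.01 over all genes tested. TPM in all 3 acute libraries lay above all 3 PBS libraries for 34 members and below them for 3, against 23.0% and 30.5% of all genes tested. The study's thresholds add a minimum size, here 1 on the log2(fold change) scale in either direction and 1 TPM as the higher group mean. Of the members 13 were higher and 0 lower with them, and 4.10% of all genes passed in either direction. The counts rested on the spread shared by 15 libraries. Leaving out 1 PBS or Acute 1 h library at a time gave 9 to 15 members, with 13, 9 and 10 without PBS replicates 1, 2 and 3, and 13, 15 and 9 without Acute 1 h replicates 1, 2 and 3. The share of all genes that were higher also dropped, to 2.96 to 4.71% in these fits. Without the Acute 24 h replicate 1 library that stood apart, which enters this test only through the shared spread, 33 members were higher and 1 was lower, and all 23 were among the 33. In that fit 19.9% of all genes were higher and 19.9% lower. With exon and intron reads counted together 32 members were higher and 2 lower, against 18.5% and 28.7% of all genes. The 2 lower were LGR6 (log2(fold change) -1.49, adjusted p = 0.000715) and WIF1 (-1.16, adjusted p = 0.00242).

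**Figure D1:**
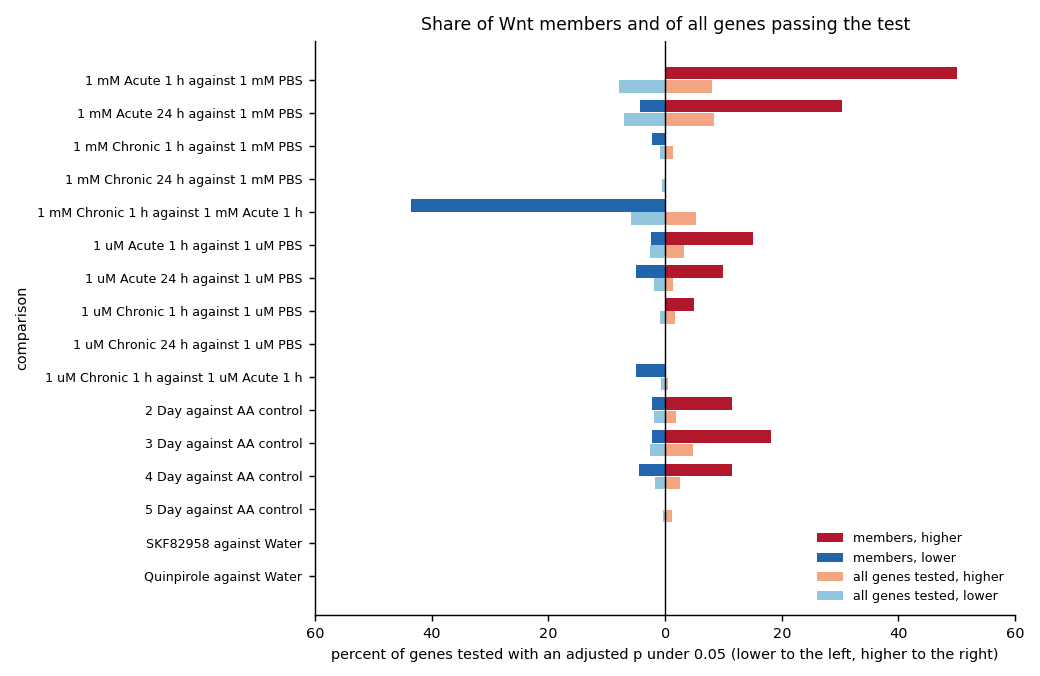
Percent of the tested Wnt pathway members and of all tested genes that were higher or lower than the control at an adjusted p below 0.05 (edgeR), for each of the 16 comparisons. At 1 mM Acute 1 h 23 of 46 members were higher and 0 were lower, against 8.04% of all genes higher.

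Of the 10 members grouped as feedback targets, 5 rose at 1 mM Acute 1 h, and the group's median log2(fold change) was 0.95. The group includes the R-spondin receptor gene LGR5, so it is not made up of inhibitors alone. DKK1, which encodes a secreted inhibitor that binds the LRP co-receptors and is also a Wnt target, was at 1.42, 1.09 and 1.12 TPM in PBS and at 4.68, 7.61 and 8.38 TPM in Acute 1 h. It rose 5.89-fold (log2(fold change) 2.56 ± 0.39 (SE), adjusted p = 0.00124), and its groups did not overlap. SP5 was at 44.8, 64.5 and 72.0 TPM in Acute 1 h, all above its PBS libraries, and rose 5.45-fold (log2(fold change) 2.45 ± 0.50, adjusted p = 0.00619). AXIN2, a scaffold of the beta-catenin destruction complex and a widely used Wnt reporter, was at 33.8, 30.3 and 32.7 TPM in PBS and at 56.2, 49.9 and 53.5 TPM in Acute 1 h, and rose with no overlap (log2(fold change) 0.79 ± 0.19, adjusted p = 0.0146). The ubiquitin ligase genes ZNRF3 (log2(fold change) 0.77, adjusted p = 0.0426) and RNF43 (1.14, adjusted p = 0.0439) also rose. The other 5 did not pass the test. NKD1, an inhibitor of Dishevelled, had a log2(fold change) of 1.01 (adjusted p = 0.0635), APCDD1, a membrane inhibitor of Wnt reception, of 0.89 (adjusted p = 0.0553), NOTUM, an enzyme that inactivates Wnt ligands, of 0.71 (adjusted p = 0.081), LGR5 of 1.33 (adjusted p = 0.0743) and NKD2 of 0.18 (adjusted p = 0.354).

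The 250 bases before the start site were searched on both strands for the TCF/LEF letters CTTTGAT and CTTTGTT in the 29 members that RefSeq's promoter table for GRCh38.p14 held. It lacked AXIN2, NKD1, NOTUM, ZNRF3, LGR5, CCND1, MYC, DKK2, DKK3, DKK4, SFRP1, WNT7B, RSPO2, FZD2, FZD3, FZD7 and FZD10. These members were not searched. A match was found in 2 of 29 members, in SP5 (CTTTGAT, 109 to 103 bases before the start) and in DKK1 (CTTTGTT, 76 to 70 bases before it), and in 6.66% of 27305 promoter windows of the same length. CTTTGAT was in 2.28% of these windows and CTTTGTT in 4.54%. The AP-1 letters TGACTCA, in 4.16% of windows, and the CRE letters TGACGTCA, in 1.77%, were in 0 of the 29. The windows of DKK1 (chr10:52314031-52314280, plus strand) and SOST (chr17:43758792-43759041, minus strand) are shown because these 2 genes had the smallest adjusted p of the members with a window, and that of SP5 (chr2:170715087-170715336, plus strand) was added after the search because it held a match. All are upstream of the annotated start, 5′ to 3′, and capitals mark the TCF/LEF letters, which are a description of the sequence and not a measured binding site.
DKK1: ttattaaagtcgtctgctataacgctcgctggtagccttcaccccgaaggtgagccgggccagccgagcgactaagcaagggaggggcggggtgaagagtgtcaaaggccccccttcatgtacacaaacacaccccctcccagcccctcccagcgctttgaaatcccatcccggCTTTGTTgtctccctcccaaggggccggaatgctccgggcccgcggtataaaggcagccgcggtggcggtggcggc
SP5: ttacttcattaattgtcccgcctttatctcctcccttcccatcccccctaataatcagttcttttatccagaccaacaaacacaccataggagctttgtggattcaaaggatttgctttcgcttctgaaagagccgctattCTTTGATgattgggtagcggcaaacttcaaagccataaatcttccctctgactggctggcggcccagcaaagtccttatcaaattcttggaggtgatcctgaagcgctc
SOST: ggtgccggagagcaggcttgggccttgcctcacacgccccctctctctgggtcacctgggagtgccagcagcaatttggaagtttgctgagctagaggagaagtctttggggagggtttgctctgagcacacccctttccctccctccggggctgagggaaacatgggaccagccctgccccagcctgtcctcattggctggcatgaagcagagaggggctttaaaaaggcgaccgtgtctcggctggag

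Of the members that carry the signal inside the cell, CTNNB1 and 1 of 4 TCF/LEF genes rose. CTNNB1 was at 171, 164 and 176 TPM in PBS and at 213, 219 and 228 TPM in Acute 1 h, a small rise with no overlap (log2(fold change) 0.44 ± 0.09, adjusted p = 0.00527). Of the 4 TCF/LEF genes, TCF7 rose (log2(fold change) 0.79, adjusted p = 0.0208). LEF1, which is both a beta-catenin partner and a Wnt target, was at 88.5, 78.3 and 79.7 TPM in PBS and at 103, 89.7 and 91.6 TPM in Acute 1 h, with a log2(fold change) of 0.27 ± 0.19 (adjusted p = 0.357). TCF7L1, mainly a repressor, had a log2(fold change) of 0.06 and TCF7L2 of 0.30, and neither passed. Both targets tied to proliferation rose, MYC passing only with all PBS and Acute 1 h libraries included. CCND1, which encodes cyclin D1, was at 54.4, 61.1 and 52.5 TPM in PBS and at 119, 105 and 120 TPM in Acute 1 h (log2(fold change) 1.10 ± 0.21, adjusted p = 0.00433). MYC, a growth-promoting transcription factor gene, was at 13.2, 12.4 and 14.7 TPM in PBS and at 30.8, 31.6 and 35.7 TPM in Acute 1 h (log2(fold change) 1.35, adjusted p = 0.0344). Acute libraries lay above PBS libraries throughout for both genes.

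Of the 10 secreted inhibitors outside the feedback group, 3 rose and 0 fell at 1 mM Acute 1 h. SOST, which encodes sclerostin, an inhibitor that binds LRP co-receptors, was at 2.41, 2.01 and 1.74 TPM in PBS and at 7.95, 9.07 and 10.2 TPM in Acute 1 h, and rose 4.61-fold with no overlap (log2(fold change) 2.20 ± 0.38, adjusted p = 0.00273). DKK2, a Dickkopf that also binds LRP co-receptors, rose with a log2(fold change) of 1.71 (adjusted p = 0.0181). DKK4 rose from 2, 0 and 1 exon reads to 9, 12 and 14, which are few reads (log2(fold change) 3.60, adjusted p = 0.0197). The Frizzled-related proteins and WIF1, which bind Wnt ligands directly, did not pass, and their values ran from -0.88 for WIF1 (adjusted p = 0.103) to 0.87 for SFRP2 (adjusted p = 0.137).

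Ligand genes and R-spondins also rose. Of the 7 Wnt genes 5 passed and 0 fell, and all 3 R-spondins passed. WNT5A, a ligand mostly of noncanonical signaling, was at 31.3, 30.1 and 25.1 TPM in PBS and at 40.6, 46.2 and 46.7 TPM in Acute 1 h (log2(fold change) 0.69 ± 0.12, adjusted p = 0.00312). The others that rose were WNT7B (log2(fold change) 0.86, adjusted p = 0.00963), WNT9A (1.15, adjusted p = 0.0166), WNT3A, a canonical ligand of the dorsal telencephalon (1.05, adjusted p = 0.0178), and WNT7A (0.42, adjusted p = 0.0412). RSPO2 was at 146, 151 and 126 TPM in PBS and at 256, 284 and 288 TPM in Acute 1 h, a 2.05-fold rise with no overlap (log2(fold change) 1.04 ± 0.18, adjusted p = 0.00273). RSPO3 (log2(fold change) 0.93, adjusted p = 0.0166) and RSPO1 (1.12, adjusted p = 0.0411) rose as well. Of the 9 receptors 3 rose. FZD1 was at 20.4, 17.02 and 18.2 TPM in PBS and at 32.0, 29.9 and 34.7 TPM in Acute 1 h (log2(fold change) 0.86 ± 0.17, adjusted p = 0.00508), and FZD10 (1.88, adjusted p = 0.0452) and FZD7 (0.76, adjusted p = 0.0475) passed narrowly. FZD3, the most abundant receptor, had a log2(fold change) of 0.03.

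**Figure D2:**
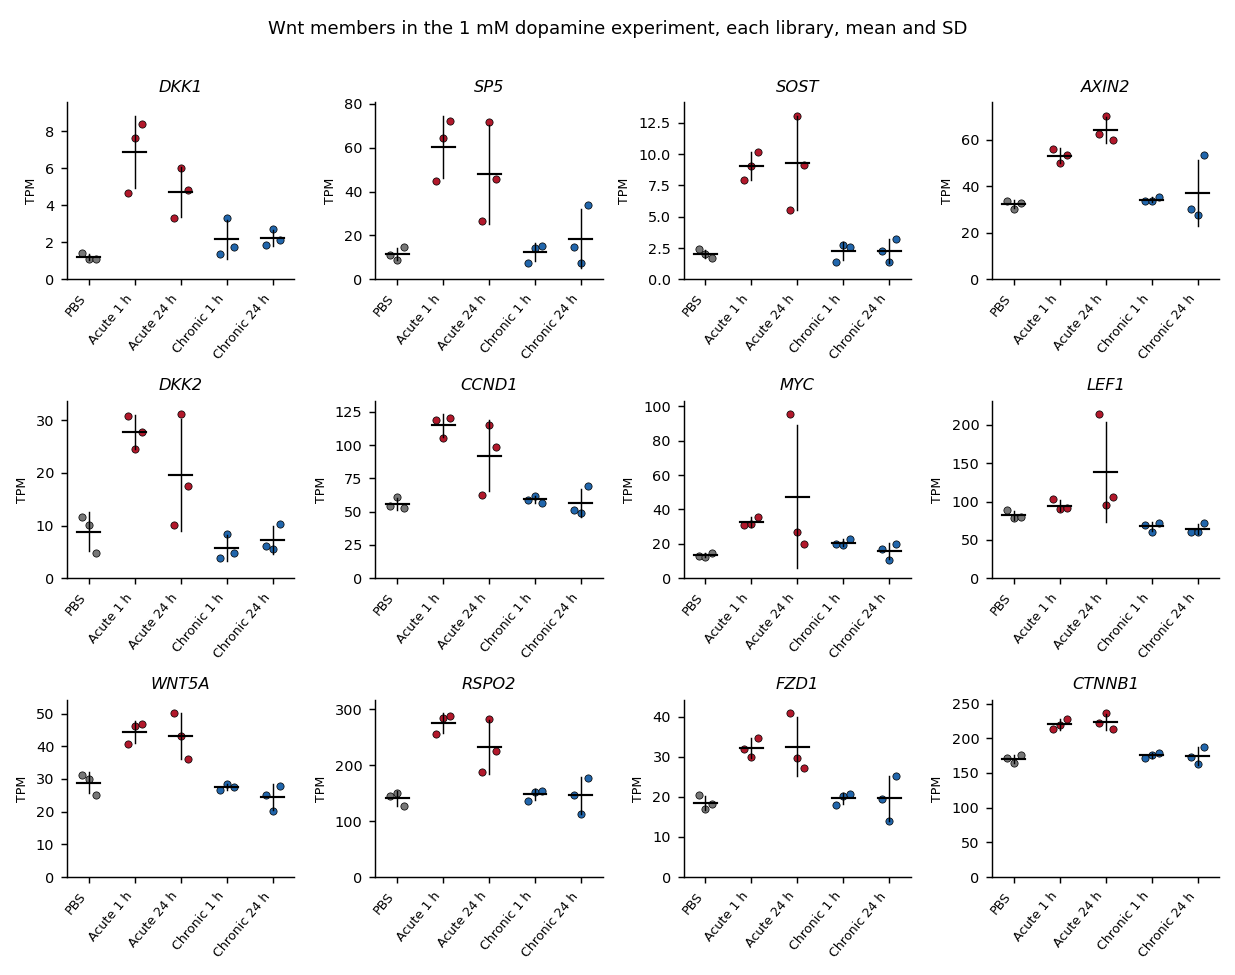
TPM of 12 members in each library of the 1 mM experiment (points) with the mean and SD of 3 libraries per group (bars), grey for PBS, red for acute and blue for chronic dopamine. DKK1, SP5, SOST and RSPO2 were above PBS at Acute 1 h in every library, and MYC and LEF1 had 1 Acute 24 h library far above the other two.

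DKK1, SOST, RSPO2, WNT5A, CCND1, FZD1, CTNNB1 and SP5 were higher with every single PBS or Acute 1 h library left out. MYC, RSPO1, FZD7, WNT7A, FZD10, RNF43 and ZNRF3 passed the test in 0 of these 6 fits. Other properties of the libraries moved with the acute response. The share of gene reads in introns was 19.5 to 21.8% in 1 mM PBS and 12.3 to 13.2% in Acute 1 h, and with exon and intron reads counted together 4814 genes were higher and 7457 lower of 26006, against 1431 higher and 7.94% lower of 17804 with exon reads. Of 4 tested markers of choroid plexus and cortical hem, LMX1A, a hem transcription factor gene, rose from 21.4 to 42.2 TPM (log2(fold change) 1.05, adjusted p = 0.00433). The summed markers of that list were at 564.9 to 2799 TPM in PBS and 413.9 to 1308 TPM in Acute 1 h. Summed proliferating-cell markers, CCND1 not among them, were at 574.5 to 607.5 TPM in PBS and 509 to 565.1 TPM in Acute 1 h with 0 of 4 called, and summed neuron markers were at 3675 to 4225 and 3354 to 3675 TPM with 2 of 7 lower. In the chronic groups the intron share was 20.6 to 20.9% at 1 h and 18.9 to 22.4% at 24 h. The methods name 2 sequencing facilities with different platforms and do not state which libraries were run on which. The part of introns, of sequencing and of cell composition in the members' response was not tested.

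Beyond the 46 members, 88 of 98 further Wnt pathway genes were tested at 1 mM Acute 1 h, and 13 were higher and 6 lower. Over all genes tested the shares were 8.04% higher and 7.94% lower. The median log2(fold change) was 0.10 over the further genes and 0.01 over all genes. Among other reported targets 5 of 15 were higher, with a median of 0.62, whereas 0 of 18 cytoplasmic transducers passed in either direction. WLS, which carries Wnt ligands to the cell surface, rose from 171 to 321 TPM (log2(fold change) 0.97, adjusted p = 0.00196). RYK, a Wnt co-receptor gene, rose by 0.40 (adjusted p = 0.003), and the reported target EPHB2 by 0.67 (adjusted p = 0.00304). Among nuclear cofactors, the beta-catenin coactivator genes BCL9L (log2(fold change) -0.44, adjusted p = 0.00763) and BCL9 (-0.28, adjusted p = 0.0116) and the corepressor gene TLE2 (-0.58, adjusted p = 0.0113) fell.

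At 24 h after a single 1 mM dose, 14 members were higher and 2 lower than PBS, against 8.38% of all genes higher and 7.09% lower. With the study's thresholds 6 were higher and 1 lower, against 3.70% of all genes. The median log2(fold change) was 0.53 over the members and 0.02 over all genes. The count depended on single libraries, at 4, 2 and 6 without PBS replicates 1, 2 and 3 and at 32, 28 higher and 4 lower, without Acute 24 h replicate 1. It was 0 of 45, as it was over all genes, when only these 2 groups were fitted. Without Acute 24 h replicate 1, 11.1% of all genes were higher and 11.1% lower. The shares of all genes higher without PBS replicates 1, 2 and 3 were 1.37%, 0.715% and 2.54%. The replicate-specific MYC and FZD8 values given above belong to this group. Summed neuron markers were at 1840 to 3395 TPM at Acute 24 h against 3675 to 4225 TPM in PBS, with 3 of 7 lower, and 2 of 4 tested markers of choroid plexus and cortical hem were lower, with sums of 288.2 to 810.6 TPM. The intron share was 12.5 to 15.9%. Their part in the members' values was not tested.

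SOST was at 5.55, 13.1 and 9.17 TPM at Acute 24 h (log2(fold change) 2.09 ± 0.38, adjusted p = 0.00614) and DKK1 at 3.32, 5.99 and 4.83 TPM (1.87 ± 0.39, adjusted p = 0.0113). TCF7 rose from 2.92, 3.27 and 2.496 TPM to 8.01, 5.55 and 5.29 TPM (log2(fold change) 0.98 ± 0.21, adjusted p = 0.0119). AXIN2 was at 62.3, 70.3 and 59.9 TPM (log2(fold change) 0.88 ± 0.19, adjusted p = 0.0125). These 4 genes were above PBS in all 3 libraries. SP5 (log2(fold change) 1.97, adjusted p = 0.0223) and ZNRF3 (1.05, adjusted p = 0.0165) of the feedback members also rose. MYC rose by 1.63 (adjusted p = 0.0205) and LEF1 by 0.60 (adjusted p = 0.0471), with LEF1 at 214, 96.0 and 106 TPM, and CTNNB1 by 0.28 (adjusted p = 0.0426), while CCND1 had a log2(fold change) of 0.63 (adjusted p = 0.0546). RSPO1 (1.19, adjusted p = 0.0363), RSPO2 (0.62, adjusted p = 0.0355), WNT5A (0.45, adjusted p = 0.0288), FZD1 (0.68, adjusted p = 0.0215) and FZD7 (0.80, adjusted p = 0.043) rose. The inhibitor genes DKK3 (-0.63, adjusted p = 0.023) and SFRP5 (-1.55, adjusted p = 0.0321) fell. Among 88 further Wnt genes tested 11 were higher and 6 lower, against 8.38% and 7.09% of all genes. CXXC5, an inhibitor of Dishevelled, rose by 0.51 (adjusted p = 0.00554), and the ligand gene WNT3 had a log2(fold change) of -0.97 (adjusted p = 0.0194).

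After 5 daily 1 mM doses, few members passed the test against PBS. At Chronic 1 h, 0 members were higher and 1 was lower, against 0.814% of all genes lower. That member was TCF7L1, at 37.4, 29.6 and 33.4 TPM in PBS and at 24.1, 22.6 and 22.9 TPM in Chronic 1 h (log2(fold change) -0.57 ± 0.14, adjusted p = 0.0496). With any 1 PBS or Chronic 1 h library left out, 0 members were called. Next in order, SFRP4 was at 1.201, 1.80 and 1.99 TPM in PBS and at 2.89, 3.63 and 3.73 TPM in Chronic 1 h (log2(fold change) 0.99, adjusted p = 0.0961). FZD7 was at 45.3, 53.0 and 55.0 TPM in PBS and at 83.7, 80.3 and 79.1 TPM in Chronic 1 h (0.62, adjusted p = 0.211), and SFRP1 at 100.8, 115.9 and 124.5 TPM in PBS and at 74.1, 62.6 and 77.9 TPM (-0.71, adjusted p = 0.228). These 3 did not overlap PBS but did not pass the test. TPM in all 3 Chronic 1 h libraries lay above PBS for 8 members and below it for 8, against 25.9% and 15.5% of all genes. The median log2(fold change) was 0.03 over the members, 9 had an unadjusted p below 0.05, and 0 members and 0.820% of all genes passed the study's thresholds. AXIN2 was at 33.6, 33.7 and 35.6 TPM (log2(fold change) 0.05, adjusted p = 0.946) and CTNNB1 at 172, 175 and 178 TPM (0.00, adjusted p = 0.999), both overlapping PBS. CCND1 was at 59.0, 61.7 and 56.6 TPM (0.04, adjusted p = 0.961). MYC, at 20.0, 19.1 and 23.1 TPM, lay above PBS in all libraries without passing (log2(fold change) 0.58, adjusted p = 0.517), and LEF1 had a log2(fold change) of -0.33 (adjusted p = 0.431). Without Acute 24 h replicate 1, 4 members were higher (FZD7, FZD5, SFRP4 and MYC) and 4 lower (TCF7L1, LEF1, SFRP1 and DKK3), against 9.25% and 9.10% of all genes. Of 88 further Wnt genes tested, 2 were higher and 2 lower, against 1.27% and 0.814% of all genes. Among them were FOSL1, a reported target, at 2.99 (adjusted p = 0.0208) and the glypican gene GPC4 at -0.73 (adjusted p = 0.0133).

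At 1 mM Chronic 24 h, 0 members passed in edgeR and 2 in DESeq2 (TCF7L1 and WNT5B, both lower), 7 had an unadjusted p below 0.05 in edgeR, and 0.663% of all genes passed. The study's thresholds left 0 members and 0.298% of all genes. TCF7L1 was at 22.7, 19.9 and 27.6 TPM (log2(fold change) -0.54, adjusted p = 0.115) and NOTUM at 1.43, 0.986 and 1.37 TPM against 2.08, 2.75 and 2.83 TPM in PBS (-1.04, adjusted p = 0.14). WNT5B was at 13.7, 10.3 and 10.1 TPM against 17.8, 19.8 and 14.1 TPM in PBS (-0.63, adjusted p = 0.143), and WNT7A at 11.6, 12.1 and 14.2 TPM against 17.5, 14.5 and 16.3 TPM in PBS (-0.38, adjusted p = 0.259). All 4 were below PBS in every library without passing. Log2(fold change) was 0.17 for AXIN2 (adjusted p = 0.866), -0.39 for LEF1 (0.494), 0.21 for MYC (0.943), 0.01 for CTNNB1 (0.991) and -0.02 for CCND1 (0.993). Without Acute 24 h replicate 1, 6 members were lower, namely TCF7L1, WNT7A, LEF1, DKK3, WNT5B and NOTUM, against 5.42% of all genes. Of 88 further genes tested 2 were lower, against 0.545% of all genes, among them DACT2, an inhibitor of the pathway (log2(fold change) -1.54, adjusted p = 0.019).

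Chronic and acute cultures were also set against each other directly, 1 h after the last dose. At 1 mM, 20 members were lower in Chronic 1 h than in Acute 1 h and 0 were higher, against 5.91% of all genes lower. The median log2(fold change) was -0.65 over the members and 0.01 over all genes. The study's thresholds left 11 lower and 0 higher, against 2.82% of all genes. TPM in the chronic libraries lay below all acute libraries for 35 of 46 members and above them for 1, against 17.6% and 36.8% of all genes tested. Leaving out 1 library of either group gave 14 or 15 members, all lower, against 2.32 to 3.62% of all genes. Without Acute 24 h replicate 1, 34 members were lower, against 16.6% of all genes. This comparison shares the Acute 1 h libraries with that against PBS, so it is no independent measure of the acute rise.

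Members of every role were among the 20. WNT5A was at 26.6, 28.3 and 27.6 TPM in Chronic 1 h, below all Acute 1 h libraries (log2(fold change) -0.80 ± 0.12, adjusted p = 0.00131). WNT7B, a canonical ligand gene, was at 62.0, 58.4 and 64.7 TPM in Acute 1 h and at 31.1, 30.2 and 30.9 TPM in Chronic 1 h (-1.11 ± 0.19, adjusted p = 0.0027). RSPO2 was at 137, 152 and 154 TPM in Chronic 1 h (-1.01 ± 0.18, adjusted p = 0.00325). SOST was at 1.43, 2.77 and 2.58 TPM (-2.11 ± 0.38, adjusted p = 0.00342), and DKK2 at 3.85, 8.46 and 4.72 TPM against 30.8, 24.4 and 27.8 TPM in Acute 1 h (-2.39, adjusted p = 0.0045). None of these 5 genes overlapped between the groups.

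The feedback members DKK1 (log2(fold change) -1.78, adjusted p = 0.00755), SP5 (-2.38, adjusted p = 0.00831), NOTUM (-1.39, adjusted p = 0.00608), AXIN2 (-0.74, adjusted p = 0.0237) and NKD1 (-1.23, adjusted p = 0.0381) were lower in Chronic 1 h. So were CTNNB1 (-0.43, adjusted p = 0.00633), CCND1 (-1.06, adjusted p = 0.00602), TCF7L1 (-0.63, adjusted p = 0.0106) and TCF7 (-0.75, adjusted p = 0.0329). The remaining calls were WNT7A (-0.66, adjusted p = 0.00573), WNT3A (-1.38, adjusted p = 0.00573), FZD1 (-0.82, adjusted p = 0.00769), RSPO3 (-0.89, adjusted p = 0.0259), DKK4 (-3.27, adjusted p = 0.0307) and the Frizzled-related gene FRZB (-0.61, adjusted p = 0.0499). LEF1 (-0.60, adjusted p = 0.0582) and MYC (-0.76, adjusted p = 0.229) did not pass. AXIN2, NKD1, TCF7, RSPO3 and FRZB passed in 0 of the 6 fits that left out 1 library of either group. The intron share was 20.6 to 20.9% in Chronic 1 h, and LMX1A was also lower (log2(fold change) -1.69), 1 of 2 choroid plexus and hem markers that were. Summed astrocyte markers were at 194 to 205.5 TPM in Chronic 1 h against 106.1 to 111.2 TPM in Acute 1 h, with 2 of 5 higher. Summed proliferating-cell markers were at 393.9 to 421.6 against 509 to 565.1 TPM, with 0 of 4 called, and 2 of 7 markers of progenitors and radial glia were lower. Their part in these differences was not tested. Of 88 further Wnt genes tested 2 were higher and 13 lower, against 5.37% and 5.91% of all genes. Among them were RECK, a co-receptor gene for WNT7A and WNT7B, at 0.56 (adjusted p = 0.00922) and GPC4 at -1.09 (adjusted p = 0.000338).

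The 1 uM experiment asked the same of a lower dose. Reads sufficed for 40 of 46 members there, and DKK1, DKK4, FZD10, LGR6, SFRP4 and SP5 were not tested. At 1 uM Acute 1 h, 6 members were higher and 1 lower, against 3.25% of all genes higher and 2.52% lower. With the study's thresholds 3 were higher and 1 lower, against 2.41% of all genes. The median log2(fold change) was 0.18 over the members and 0.02 over all genes tested. Leaving out single libraries gave 5 to 11 members, with 11 without Acute 1 h replicate 2. Over all genes 1.61 to 3.13% were higher and 1.47 to 3.4% lower in these fits.

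Both R-spondins RSPO1 and RSPO2 rose at 1 uM Acute 1 h, and RSPO3 had a log2(fold change) of 0.44 (adjusted p = 0.387). RSPO2 was at 92.7, 75.5 and 86.0 TPM in PBS and at 176, 170 and 208 TPM in Acute 1 h (log2(fold change) 1.14 ± 0.12, adjusted p = 6.33e-05). RSPO1 was at 23.5, 17.1 and 18.3 TPM in PBS and at 67.2, 51.8 and 60.5 TPM in Acute 1 h (1.63 ± 0.23, adjusted p = 0.000904). Both were above PBS in every library, as was CCND1, at 77.3, 48.2 and 68.7 TPM in PBS and 111, 93.8 and 137 TPM in Acute 1 h (0.84 ± 0.10, adjusted p = 0.000283). DKK2 moved in the opposite direction from 1 mM, from 8.32, 7.68 and 7.62 TPM in PBS to 0.734, 1.76 and 2.52 TPM, with no overlap (-2.20 ± 0.43, adjusted p = 0.00696). It rested on 97, 100 and 82 exon reads in PBS and 5, 19 and 24 in Acute 1 h, and with exon and intron reads counted together its log2(fold change) was 0.25.

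FZD7 (log2(fold change) 1.17, adjusted p = 0.00696) and SFRP2 (0.65, adjusted p = 0.0179) also rose at 1 uM Acute 1 h. AXIN2 rose by 0.97 (adjusted p = 0.0464), from 34.2, 9.80 and 29.0 TPM to 46.8, 29.7 and 59.9 TPM, and its groups overlapped. Replicate 2 was the lowest library of both groups. MYC (0.70, adjusted p = 0.163), CTNNB1 (0.11, adjusted p = 0.7) and LEF1 (0.09, adjusted p = 0.809) did not pass. In these libraries the summed proliferating-cell markers were at 867.3 to 986.4 TPM in PBS and 688.3 to 762.3 TPM in Acute 1 h, and those of choroid plexus and cortical hem at 2101 to 2666 and 1152 to 1538 TPM. Their part in the members' values was not tested. Of 84 further Wnt genes tested 7 were higher and 2 lower, against 3.25% and 2.52% of all genes. Among them were ID2, a reported target, at 1.53 (adjusted p = 4.25e-05) and SERPINF1, which encodes a secreted inhibitor, at -1.14 (adjusted p = 0.000917).

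**Figure D3:**
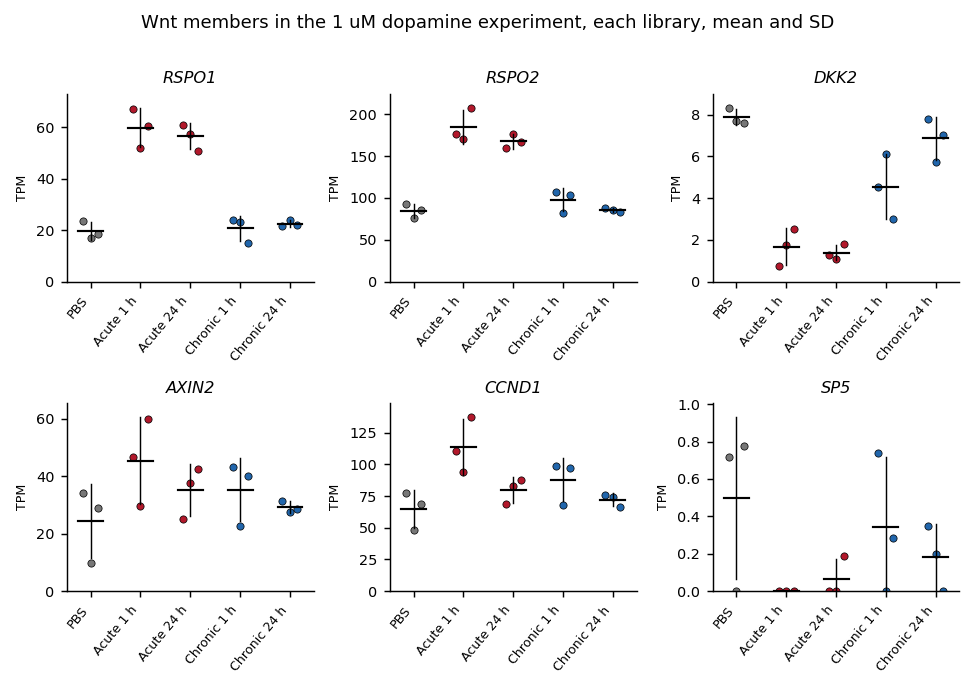
TPM of 6 members in each library of the 1 uM experiment (points) with the mean and SD of 3 libraries per group (bars). RSPO1 and RSPO2 were above PBS at Acute 1 h and Acute 24 h in every library, DKK2 was below PBS at both, and SP5 stayed under 1 TPM in PBS.

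At 1 uM Acute 24 h, 4 members were higher and 2 lower, against 1.40% and 1.91% of all genes. With the study's thresholds 1 was higher and 1 lower, against 1.18% of all genes. RSPO2 was at 159, 177 and 167 TPM (log2(fold change) 0.94 ± 0.12, adjusted p = 0.000649), RSPO1 at 61.0, 57.5 and 50.9 TPM (1.49 ± 0.23, adjusted p = 0.00332) and DKK2 at 1.27, 1.10 and 1.78 TPM (-2.58 ± 0.43, adjusted p = 0.0052), none overlapping PBS. With exon and intron reads counted together, DKK2 had a log2(fold change) of -1.25 (adjusted p = 0.418). DKK3 fell by 0.60 (adjusted p = 0.0254), from 35.8, 20.8 and 31.3 TPM to 15.1, 20.2 and 24.2 TPM, with overlap and an adjusted p of 0.223 when intron reads were counted too, and SFRP2 (0.59, adjusted p = 0.0398) and WNT7B (0.86, adjusted p = 0.0439) rose. LEF1 (0.43, adjusted p = 0.158), CCND1 (0.27, adjusted p = 0.194), AXIN2 (0.55, adjusted p = 0.316), CTNNB1 (0.11, adjusted p = 0.762) and MYC (0.19, adjusted p = 0.805) did not pass. Leaving out single libraries gave 4 members without PBS replicate 2 and 3 without any other PBS or Acute 24 h library. Over all genes 0.321 to 0.629% were higher and 0.485 to 0.946% lower in these fits. Of 84 further genes tested 5 were higher and 2 lower, against 1.40% and 1.91% of all genes. Among them were the corepressor gene TLE1 at 0.98 (adjusted p = 0.00332) and SERPINF1 at -0.70 (adjusted p = 0.0301).

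At 1 uM Chronic 1 h, 2 members were higher, against 1.75% of all genes higher, and 1 passed the study's thresholds, against 1.11% of all genes. MYC was at 5.11, 3.05 and 5.89 TPM in PBS and at 12.5, 8.17 and 10.8 TPM in Chronic 1 h, with no overlap (log2(fold change) 1.23, adjusted p = 0.0272). CCND1, at 98.5, 68.2 and 97.2 TPM, overlapped PBS (0.49, adjusted p = 0.0215). WNT5A, at 18.6, 14.3 and 19.8 TPM in PBS and at 9.41, 11.2 and 10.2 TPM in Chronic 1 h, was below PBS in every library without passing (-0.70, adjusted p = 0.0742). FZD8, at 41.2, 18.2 and 44.5 TPM in PBS and at 79.8, 30.9 and 88.1 TPM, overlapped PBS (0.98, adjusted p = 0.267). AXIN2 (0.63, adjusted p = 0.272), CTNNB1 (-0.06, adjusted p = 0.907) and LEF1 (0.03, adjusted p = 0.963) did not pass. Leaving out single libraries gave 1 member without PBS replicate 1, 0 without PBS replicate 2 or 3 or Chronic 1 h replicate 1 or 3, and 2, of which 1 was CCND1, without Chronic 1 h replicate 2. MYC was called in 0 of these 6 fits. ID2 was the 1 further gene that was higher (0.87, adjusted p = 0.00595).

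At 1 uM Chronic 24 h, 0 members passed in edgeR and 0 in DESeq2, 2 had an unadjusted p below 0.05, and 0% of all genes passed, with or without the study's thresholds. WNT3A was at 9.19, 3.78 and 4.17 TPM in PBS and at 16.5, 15.2 and 11.3 TPM (log2(fold change) 1.33), and RNF43 at 2.43, 3.33 and 2.36 TPM in PBS and at 1.26, 1.05 and 0.0557 TPM (-1.85). NKD2 was at 29.1, 12.0 and 27.5 TPM in PBS and at 33.8, 28.7 and 33.0 TPM (0.49), and WNT7A at 6.98, 2.57 and 7.65 TPM in PBS and at 9.95, 9.59 and 6.74 TPM (0.64). The first pair did not overlap PBS, NKD2 and WNT7A overlapped it, and none of the 4 passed (adjusted p = 0.867 for each). AXIN2 had a log2(fold change) of 0.31 (adjusted p = 0.867), CCND1 of 0.14 (0.867), LEF1 of -0.09 (0.889), MYC of 0.07 (0.95) and CTNNB1 of 0.03 (0.962). Against 1 uM Acute 1 h, 2 members were lower in Chronic 1 h, against 0.647% of all genes lower, and 1 passed the study's thresholds, against 0.496% of all genes. These were RSPO2, at 108, 82.0 and 104 TPM (log2(fold change) -0.90, adjusted p = 0.0022), and RSPO1, at 23.8, 23.4 and 15.2 TPM (-1.47, adjusted p = 0.00799), both below all Acute 1 h libraries. SFRP2, at 48.9, 41.2 and 50.3 TPM against 72.7, 65.5 and 77.4 TPM in Acute 1 h, had a log2(fold change) of -0.59 (adjusted p = 0.0685), and WNT2B, at 6.56, 5.56 and 6.97 TPM against 10.1, 9.24 and 10.2 TPM, of -0.61 (adjusted p = 0.0817). Neither overlapped and neither passed. CCND1 (-0.35, adjusted p = 0.126), MYC (0.53, adjusted p = 0.421), CTNNB1 (-0.17, adjusted p = 0.647), AXIN2 (-0.33, adjusted p = 0.666) and LEF1 (-0.06, adjusted p = 0.922) did not pass. Of the further genes ID2 was lower (-0.66, adjusted p = 0.0405).

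The responses to both doses at Acute 1 h were compared by testing the difference of their log2(fold changes), 1 mM minus 1 uM, in 1 fit over 30 libraries. All 46 members were tested, and 2 differed, against 2.01% of all genes. DKK2 rose at 1 mM and fell at 1 uM, and the difference was 3.92 ± 0.62 (adjusted p = 0.000852), but 0.94 (adjusted p = 0.309) with exon and intron reads counted together. LGR6 had a difference of -6.69 ± 1.60 (adjusted p = 0.0289), from exon reads of 15, 15 and 13 in 1 mM PBS and 16, 14 and 4 in 1 mM Acute 1 h against 0, 0 and 0 in 1 uM PBS and 9, 7 and 1 in 1 uM Acute 1 h, so its size rests on a group without reads and is no estimate. No difference passed for CTNNB1 (0.35, adjusted p = 0.327), MYC (0.67, adjusted p = 0.582), CCND1 (0.28, adjusted p = 0.651), LEF1 (0.20, adjusted p = 0.769) or AXIN2 (-0.16, adjusted p = 0.898). With intron reads counted too, CTNNB1 (0.91, adjusted p = 0.00787) and LEF1 (0.73, adjusted p = 0.0139) passed, among 15 members more positive and 3 more negative at 1 mM, against 9.95% and 18.0% of all genes. Leaving out 1 of the libraries compared gave 1 to 4 members, with 4 without 1 uM Acute 1 h replicate 3. It gave 1 member without any 1 of the 1 mM PBS libraries, 1 mM Acute 1 h replicate 3, 1 uM PBS replicate 1 or 3, or 1 uM Acute 1 h replicate 1. Without 1 mM Acute 24 h replicate 1, 8 differed, with SP5, WNT9A, FZD5, ZNRF3, NKD1 and APCDD1 more positive at 1 mM in addition, against 2.62% of all genes more positive. Of 88 further Wnt genes tested 3 were more positive and 1 more negative at 1 mM, against 1.09% and 0.919% of all genes. Among them were TPBG, an inhibitor gene, at 1.49 (adjusted p = 0.0277) and ID2 at -1.49 (adjusted p = 0.000382).

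In the time course, the question was how the members changed with the number of daily 1 mM doses. Reads sufficed for 44 of 46 members, and all 4 comparisons share the AA control libraries. After 2 days 5 members were higher and 1 lower, against 1.89% and 1.99% of all genes. WNT7A, a ligand gene of neural progenitors, was at 18.7, 20.7 and 25.4 TPM in AA control and at 9.05, 5.98 and 6.48 TPM after 2 days (log2(fold change) -1.48 ± 0.24, adjusted p = 0.00387). FRZB was at 7.08, 9.59 and 7.30 TPM in AA control and at 14.3, 11.9 and 12.5 TPM (0.82 ± 0.15, adjusted p = 0.00756). DKK3 was at 30.7, 26.6 and 26.1 TPM in AA control and at 36.7, 34.2 and 31.1 TPM (0.42 ± 0.08, adjusted p = 0.00789). These genes did not overlap between the groups.

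RSPO2, at 72.4, 92.9 and 77.0 TPM in AA control and at 99.1, 113 and 95.3 TPM after 2 days, rose as well with no overlap (log2(fold change) 0.48 ± 0.10, adjusted p = 0.018), as did MYC (0.60, adjusted p = 0.0323) and WNT7B (0.43, adjusted p = 0.0366). LEF1 (-0.29, adjusted p = 0.116), AXIN2 (0.18, adjusted p = 0.309), CCND1 (0.18, adjusted p = 0.408) and CTNNB1 (0.09, adjusted p = 0.502) did not pass. Leaving out single libraries gave 2 to 5 members, with 2 without 2 Day replicate 2 and 3 without any 1 of the AA control libraries. Over all genes 0.508 to 1.8% were higher and 0.221 to 1.5% lower in these fits. FGF18, a reported target, was the 1 further gene called (0.86, adjusted p = 0.0302).

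After 3 days 8 members were higher and 1 lower, against 4.77% and 2.60% of all genes, and the median was 0.26 over the members against 0.00 over all genes. SOST was at 4.18, 7.99 and 9.39 TPM in AA control and at 16.7, 25.9 and 18.2 TPM after 3 days, above all controls (log2(fold change) 1.60 ± 0.26, adjusted p = 0.00236). ZNRF3 was at 28.3, 32.2 and 35.3 TPM in AA control and at 42.0, 47.6 and 42.8 TPM (0.56 ± 0.11, adjusted p = 0.00506). MYC was at 12.5, 11.8 and 12.5 TPM in AA control and at 19.9, 19.8 and 18.3 TPM (0.76 ± 0.14, adjusted p = 0.00545). LGR4, an R-spondin receptor gene, was at 13.3, 14.7 and 13.9 TPM in AA control and at 18.3, 17.5 and 21.4 TPM (0.55 ± 0.11, adjusted p = 0.00781). None of the 4 overlapped.

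DKK2 (log2(fold change) 1.44, adjusted p = 0.01), CCND1 (0.49, adjusted p = 0.0195), SP5 (0.92, adjusted p = 0.0364) and DKK3 (0.27, adjusted p = 0.0462) rose after 3 days, and the receptor gene FZD8 fell by 0.96 (adjusted p = 0.0132). LEF1 (-0.31, adjusted p = 0.0781), CTNNB1 (0.15, adjusted p = 0.236) and AXIN2 (0.06, adjusted p = 0.755) did not pass. Leaving out single libraries gave 3 to 12 members, with 3 without AA control replicate 1 and 4 without 3 Day replicate 2. Over all genes 1.63 to 6.57% were higher and 0.478 to 3.66% lower in these fits. Markers of other cells moved at the same time. Summed mesenchymal markers were at 185.6 to 242.8 TPM in AA control and 275.9 to 472.2 TPM after 3 days, with 4 of 8 higher. Summed proliferating-cell markers were at 459.9 to 507.2 and 284.4 to 388.4 TPM, with 3 of 4 lower, and those of choroid plexus and cortical hem at 1506 to 2338 and 501.5 to 1070 TPM. Their part in the members' values was not tested. Of 87 further Wnt genes tested 10 were higher and 2 lower, against 4.77% and 2.60% of all genes. Among them were CXXC5 at 0.49 (adjusted p = 0.000741) and the inhibitor gene DACT1 at -0.42 (adjusted p = 0.0106).

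After 4 days 5 members were higher and 2 lower, against 2.58% and 1.80% of all genes. LEF1 fell, from 52.5, 55.9 and 51.5 TPM in AA control to 36.4, 32.1 and 33.5 TPM, with no overlap (log2(fold change) -0.62 ± 0.10, adjusted p = 0.00344). MYC was at 17.02, 23.8 and 17.2 TPM (0.69 ± 0.14, adjusted p = 0.0146), RSPO2 at 122, 97.9 and 114 TPM (0.48, adjusted p = 0.015) and WNT7B at 57.0, 63.6 and 67.4 TPM against 41.9, 51.1 and 43.1 TPM in AA control (0.50, adjusted p = 0.0165). DKK3 (0.35, adjusted p = 0.0191) and LGR5 (1.16, adjusted p = 0.0364) rose, and WNT7A, at 10.3, 13.4 and 7.73 TPM, fell by 1.02 (adjusted p = 0.0236). AXIN2 (0.23, adjusted p = 0.193), CCND1 (0.25, adjusted p = 0.247) and CTNNB1 (0.13, adjusted p = 0.319) did not pass. Leaving out single libraries gave 4, 3 and 2 members without 4 Day replicates 1, 2 and 3, and 3, 3 and 2 without AA control replicates 1, 2 and 3. Over all genes 0.82 to 1.43% were higher and 0.467 to 0.925% lower in these fits. Summed mesenchymal markers were at 185.6 to 242.8 TPM in AA control and 341.6 to 375.7 TPM after 4 days, with 2 of 8 higher. Those of medium spiny neurons were at 137.2 to 148.9 and 104.9 to 131.9 TPM, with 1 of 11 tested lower. The part of these cells in the members' values was not tested. Of 87 further genes tested 2 were higher, against 2.58% of all genes, among them FGF18 (0.81, adjusted p = 0.0363).

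After 5 days, with 2 libraries, 0 members passed in edgeR and 5 in DESeq2, 4 higher and 1 lower. In edgeR 13 had an unadjusted p below 0.05, and 1.63% of all genes passed. The DESeq2 calls were FZD5, RSPO2, MYC and LGR4, higher, and WNT7A, lower (log2(fold change) -0.98, DESeq2 adjusted p = 0.0192). The values that follow are from edgeR. RSPO2 was at 82.3 and 124.5 TPM, overlapping AA control (log2(fold change) 0.47, adjusted p = 0.0507). FZD5, a receptor gene, was at 3.04, 2.72 and 3.31 TPM in AA control and at 4.25 and 9.03 TPM (1.23, adjusted p = 0.051). MYC was at 17.4 and 17.7 TPM (0.65, adjusted p = 0.0549) and LGR4 at 16.9 and 18.7 TPM (0.48, adjusted p = 0.0647). The latter 3 were above all controls without passing. LEF1 (-0.31, adjusted p = 0.206), CCND1 (0.18, adjusted p = 0.549), AXIN2 (0.11, adjusted p = 0.673) and CTNNB1 (-0.02, adjusted p = 0.932) did not pass. Leaving out either 5 Day library leaves 1 library in that group, with the spread coming from other groups only, so no counts are given. FGF18 was the 1 further gene called (0.97, adjusted p = 0.0405).

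In edgeR with all libraries, SOST and DKK2 passed the test after 3 days and on no other day, as did ZNRF3, LGR4, SP5, CCND1 and, lower, FZD8. LGR4 also passed after 5 days in DESeq2 (log2(fold change) 0.47, adjusted p = 0.0436). With 1 library left out, SOST passed in 6 of 6 fits and DKK2 in 3 of 6. SOST had a mean of 7.19 ± 2.69 TPM (SD, n = 3) in AA control, 6.17 ± 1.32 after 2 days, 20.3 ± 4.96 after 3, 6.03 ± 0.511 after 4 and 4.28 ± 0.306 (n = 2) after 5. DKK2 had a mean of 15.3 ± 2.83 TPM in AA control, 17.5 ± 5.54 after 2 days, 38.7 ± 16.6 after 3, 15.8 ± 3.79 after 4 and 14.2 ± 0.931 (n = 2) after 5. On days 2, 4 and 5 the values of SOST and DKK2 overlapped those of AA control, and the differences between days were not tested.

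**Figure D4:**
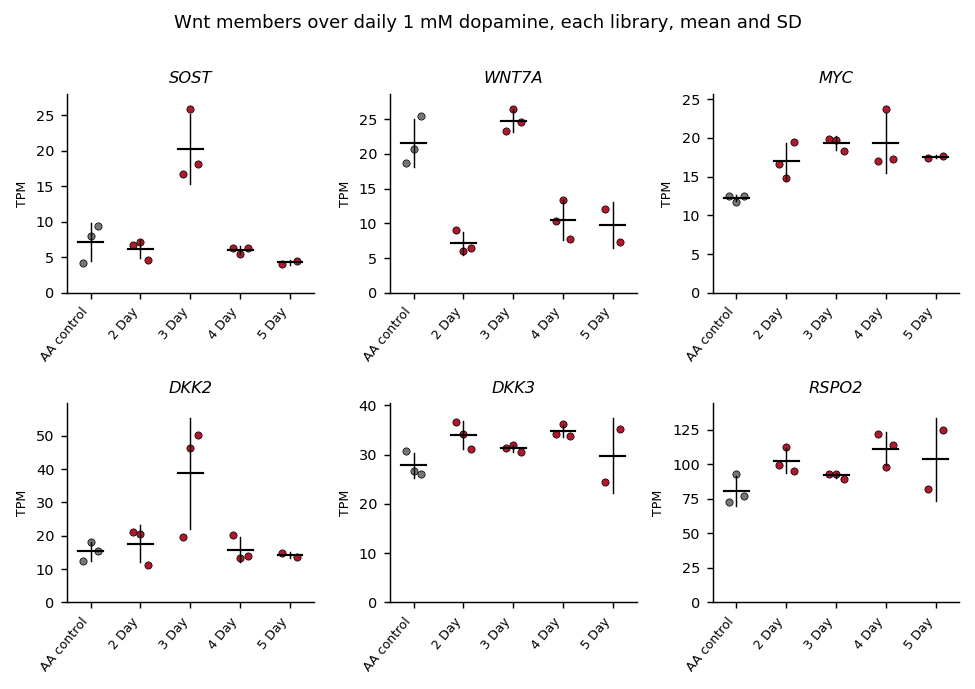
TPM of 6 members in each library of the time course (points) with the mean and SD per group (bars) for AA control and 2 to 5 days of daily 1 mM dopamine. SOST and DKK2 were highest after 3 days, WNT7A was below AA control after 2 and 4 days, and MYC was above it in every dopamine library.

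Receptor agonists were compared with Water in 45 tested members. With SKF82958, 0 members passed in edgeR and 0 in DESeq2, 3 had an unadjusted p below 0.05, and 0.0124% of all genes passed. Log2(fold change) was 0.06 for AXIN2, 0.15 for LEF1, 0.03 for CTNNB1, 0.21 for CCND1 and 0.14 for MYC, each with an adjusted p of 1. The shared spread of this experiment included the shallow Quinpirole library. Without it, 2 members were higher, against 0.612% of all genes. DKK2 was at 7.17, 7.98 and 9.01 TPM in Water and at 15.1, 19.6 and 14.2 TPM with SKF82958 (log2(fold change) 0.94 ± 0.14, adjusted p = 0.00261). ZNRF3 was at 27.6, 26.1 and 30.8 TPM in Water and at 37.0, 41.0 and 39.8 TPM (0.40 ± 0.08, adjusted p = 0.023). WNT5A, at 13.4, 12.5 and 15.7 TPM in Water and at 16.6, 18.1 and 18.2 TPM (0.27), and NKD1, at 11.1, 9.13 and 11.1 TPM in Water and at 12.4, 15.6 and 13.7 TPM (0.33), came next in the fit with all libraries, each with an adjusted p of 1. None of these 4 genes overlapped between the groups. Among further Wnt genes 0 passed with either agonist in edgeR.

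With Quinpirole, 0 members passed in edgeR and 0 in DESeq2, 0 had an unadjusted p below 0.05, and 0% of all genes passed. Log2(fold change) was 0.18 for LEF1, -0.42 for CTNNB1 and 0.09 for MYC, each with an adjusted p of 0.989, and -0.01 for AXIN2 and 0.04 for CCND1, with an adjusted p of 1. The smallest p-values belonged to WNT2B, at 6.75, 6.64 and 8.12 TPM in Water and 96.3, 9.99 and 9.99 TPM with Quinpirole, and to DKK2, at 0, 10.1 and 13.1 TPM with Quinpirole. SOST, at 3.02, 5.21 and 7.75 TPM in Water, was at 154.4, 7.07 and 9.00 TPM, and WIF1, at 1.32, 1.075 and 0.993 TPM in Water, at 76.5, 1.03 and 2.32 TPM. In all 4 the extreme value was that of the shallow library. Without that library, 0 of 45 members passed in edgeR, and 0.184% of all genes were higher.

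**Figure D5:**
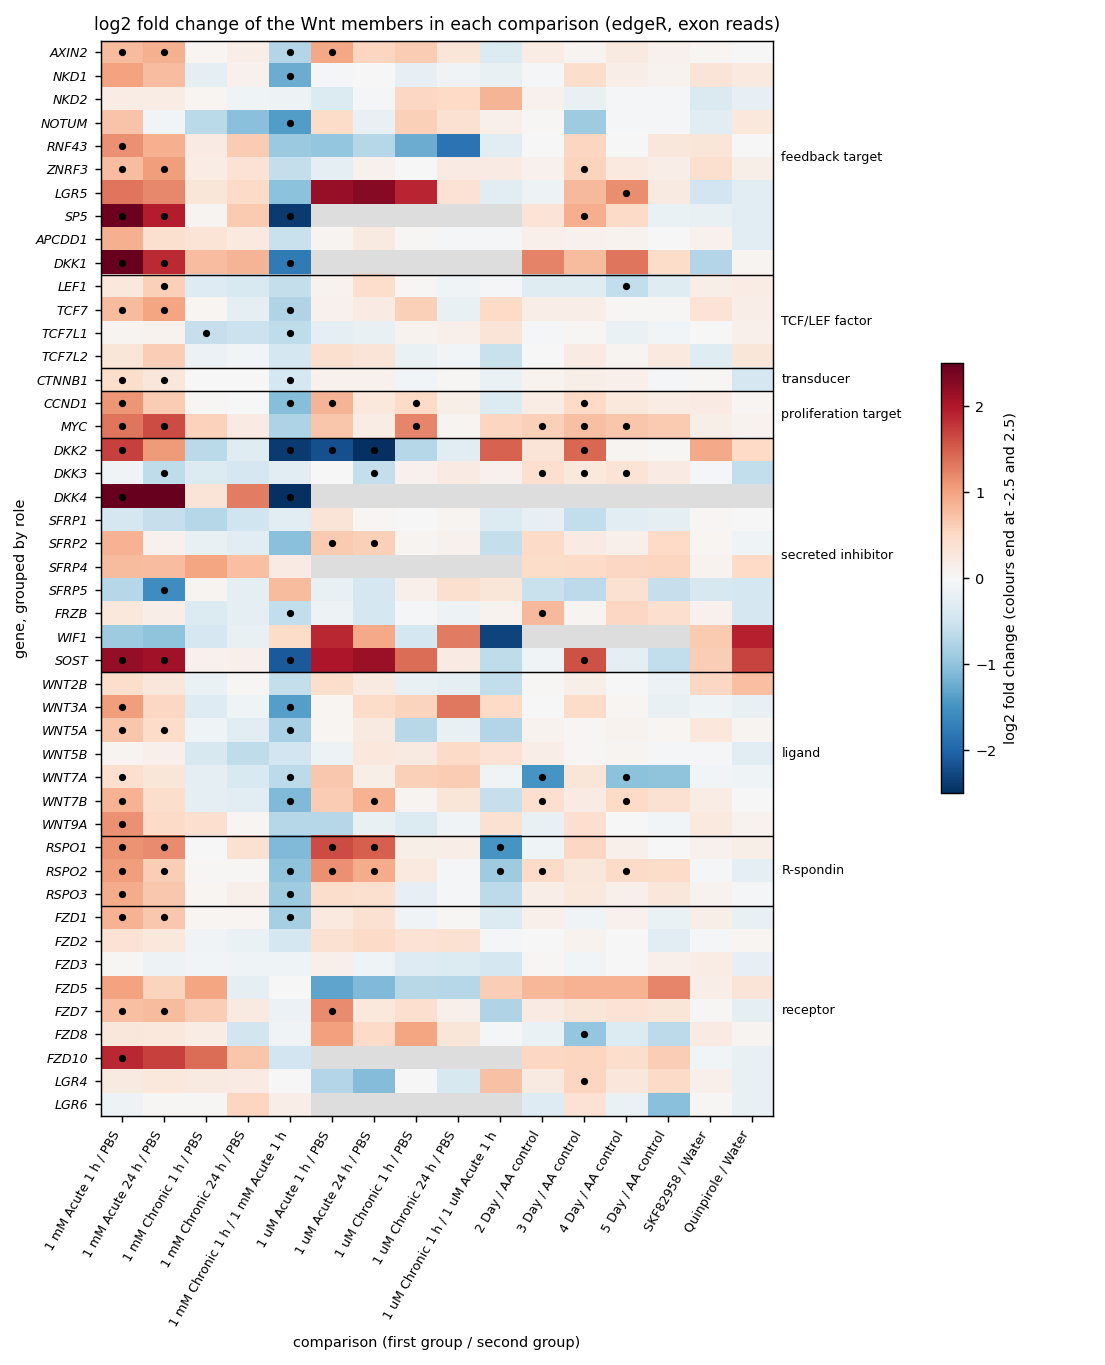
Log2(fold change) of the 46 members, grouped by role, in the 16 comparisons, with red for higher, blue for lower, grey for not tested and colours ending at 2.5 on either side. Black dots mark an adjusted p below 0.05 (edgeR), 23 of them at 1 mM Acute 1 h and 0 at both Chronic 24 h comparisons and with both agonists.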

How the data were processed

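Deposited RNA-seq tables of 53 libraries from H9-derived hMSN-like cells were analysed. According to the methods, the authors trimmed the reads and mapped them to GRCh38 (hg38 in the submitters' processing notes) in CLC Genomics Workbench. The authors deposited, per library and gene, counts of reads on exons, on introns and in total, and TPM values, which are exon reads per exon length scaled to a common sum. The strand setting was not given in the sources used here, so antisense, overlapping and near-identical genes are uncertain. Deposited exon counts were tested, and TPM values were only described. Fold changes and p-values of the authors were not used.

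Genes passing filterByExpr (minimum count 10, minimum total 15) were tested with edgeR 4.0.16 (R 4.3.3), TMM scaling and the quasi-likelihood test, in 1 fit per experiment and 1 fit over both dose experiments for the difference between doses. P-values were adjusted over all genes tested (Benjamini-Hochberg, threshold 0.05). The test was checked on simulated counts. Where both groups had at most 3 exon reads in every library, no fold is given. The precision of a value is set by the reads per library and the 3 libraries per group.

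AXIN2, LEF1, CTNNB1, MYC and CCND1 are named in every experiment, and every called member is named. Values in every library are given for the 8 smallest adjusted p at 1 mM Acute 1 h and for up to 4 in other comparisons. From 7 further Wnt gene lists, those of smallest adjusted p in each direction are named. The members and lists were chosen with earlier results of these data known. Alternatives were total gene reads, DESeq2 1.42.0, no filter, a replicate block, only the groups compared, the study's thresholds, and leaving out libraries. CGS21680 and 1 replicate of 5 Day were not analysed here.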

Additional observations from a re-analysis of the deposited data

Results flagged for a closer look

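In 2 of 46 members the response to dopamine differed between doses at Acute 1 h (edgeR, test of the difference over 30 libraries, 1 mM minus 1 uM). Of all genes tested, 2.01% differed. DKK2 had a difference of 3.92 ± 0.62 (SE, adjusted p = 0.000852), with a rise at 1 mM and a fall at 1 uM. With exon and intron reads counted together the difference of DKK2 was 0.94 (adjusted p = 0.309), and its value at 1 uM was 0.25. LGR6 had a difference of -6.69 ± 1.60 (adjusted p = 0.0289), which rests on a 1 uM PBS group without exon reads. With 1 library left out, LGR6 passed in 4 of 12 fits and DKK2 in 12 of 12. No cause was tested. Groups of 3 libraries were too small to look for single outlying values by a formal criterion.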

How the results depend on the processing

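Counts of members called that moved by more than 1.5 times are given by setting. With total gene reads in place of exon reads, 27 members were called at 1 mM Acute 24 h (24 higher and 3 lower, against 18.3% and 25.5% of all genes), 0 at Chronic 1 h, 32 at Chronic 1 h against Acute 1 h (2 higher and 30 lower, against 25.3% and 14.8% of all genes), 1 at 1 uM Chronic 1 h (WNT5A, lower, with the calls of MYC and CCND1 lost), 3 after 4 days and 18 for the difference between doses. Of the total-read calls after 4 days 1 was higher and 2 lower, against 0.941% and 1.19% of all genes. With DESeq2 the counts were 2 at 1 mM Chronic 1 h, 2 at 1 mM Chronic 24 h, 10 at 1 uM Chronic 1 h against Acute 1 h, 5 after 5 days and 7 for the difference between doses. The first 2 were 1 higher and 1 lower, against 2.78% and 3.13% of all genes. At 1 mM Chronic 24 h both were lower, against 1.81%. The 10 were 2 higher and 8 lower, against 2.01% and 2.3%. After 5 days 4 were higher and 1 lower, against 1.64% and 0.853%. Without a filter on low counts they were 0 at 1 mM and 1 uM Chronic 1 h, and 10, 16, 11 and 8 after 2, 3, 4 and 5 days. On these days 8, 13, 7 and 5 members were higher, against 2.36%, 3.64%, 2.68% and 1.79% of all genes. Lower were 2, 3, 4 and 3 members, against 2.33%, 2.71%, 2.28% and 1.18% of all genes. With only the groups compared in the fit they were 35 at 1 mM Acute 1 h (33 higher, against 22.8% of all genes), 0 at Acute 24 h, 12 at Chronic 1 h (7 higher and 5 lower, against 12.7% of all genes each way), 1 at Chronic 24 h and 33, all lower, at Chronic 1 h against Acute 1 h (22.2% of all genes). In the same setting they were 2, 0 and 0 at 1 uM Acute 1 h, Chronic 1 h and Chronic 1 h against Acute 1 h, 11 after 4 days, 3 with SKF82958 and 1 for the difference between doses. The 11 were 9 higher and 2 lower, against 7.32% and 6.19% of all genes. With the study's thresholds they were 13 at 1 mM Acute 1 h, 7 at Acute 24 h, 0 at Chronic 1 h and 11 at Chronic 1 h against Acute 1 h, and 4, 2, 1 and 1 for the same comparisons at 1 uM.

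Leaving out 1 library at a time, 1 mM Acute 24 h replicate 1 included, gave 9 to 34 members at 1 mM Acute 1 h, 2 to 32 at Acute 24 h, 0 to 8 at Chronic 1 h, 0 to 6 at Chronic 24 h and 14 to 34 at Chronic 1 h against Acute 1 h. It gave 5 to 11, 3 to 4, 0 to 2 and 2 to 3 for the same comparisons but Chronic 24 h at 1 uM, 2 to 5, 3 to 12 and 2 to 4 after 2, 3 and 4 days, 0 to 2 with SKF82958 and 1 to 8 for the difference between doses. No range is given after 5 days, where leaving out a 5 Day library leaves 1. Shares over all genes moved too, with 2.96 to 19.9% higher at 1 mM Acute 1 h and 0.715 to 15.7% higher at 1 mM Acute 24 h. At 1 mM Chronic 1 h against Acute 1 h, 2.32 to 16.6% of all genes were lower. For SKF82958 and the difference between doses, leaving out Quinpirole replicate 1 and 1 mM Acute 24 h replicate 1 was chosen after seeing the data. Replicate numbers were not used as a pairing. Deviations of same-numbered libraries correlated between -0.30 and 0.45, a range too wide to decide whether libraries were paired. The fit with the replicate block called 0 members at 1 mM Chronic 1 h and moved no other count by more than 1.5 times, with 19 at 1 mM Acute 1 h and 20 at Chronic 1 h against Acute 1 h. DKK2 at 1 uM Acute 1 h turned from lower to 0.25 with total gene reads (adjusted p = 0.843). Of the values of members called in a comparison and of AXIN2, LEF1, CTNNB1, MYC and CCND1 in all of them, 1671 kept their side of the threshold under an alternative. A change of direction was counted only where either fit made a call, so the 1671 can include reversed values that passed in neither. A call was lost in 328 and gained in 27, and 1 value reversed. The causes were not tested. Depth limits LGR6, DKK4 and the 1 uM levels of SP5 and DKK1, which rest on few reads, and all comparisons with Quinpirole replicate 1.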
